A study of Mus musculus with 22 samples.

Results

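Striatal input RNA of mice mutant for Fmr1 was compared with that of wild-type mice across all expressed genes. Input is the RNA of the whole cleared striatal lysate, kept before tagged ribosomes were pulled down from the rest of it. The comparison used 11 of the 22 libraries, namely 5 mutant libraries (animals 2, 3, 9, 10 and 11) and 6 wild-type libraries (animals 1, 4, 12, 13, 14 and 20), chosen by the genotype and assay in their titles. Of 55341 genes in the count table, 16429 had enough reads to be tested.

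The mutant is named KO in the titles, and the protocol text describes the animals as fragile X model mice. All animals of both groups also carry an EGFP-tagged copy of the ribosomal protein Rpl10a in medium spiny neurons that express the dopamine receptor Drd1. The Fmr1 allele, strain, age and sex are not given in the sources used here, and nothing is said of litters. The labels give the cell type as D1 neurons for every library, but input is not restricted to those cells: markers of D2 projection neurons, oligodendrocytes, astrocytes, microglia and endothelium were all read in every input library, with the astrocyte marker Agt at 0 in some.

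FMRP, the protein encoded by Fmr1, binds mRNAs in neurons and is best known as a brake on their translation at synapses, where it acts downstream of group I metabotropic glutamate receptors. Loss of FMRP causes fragile X syndrome. The striatum consists largely of GABAergic projection neurons of the D1 and D2 types, which integrate cortical glutamate and midbrain dopamine. Input measures the level of an RNA in the lysate and not its translation.

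Levels are given as CPM, a gene's reads scaled to a common library size with TMM factors, fold changes are mutant over wild type on the log2 scale with a standard error (SE), and a gene was called where its adjusted p was under 0.05. Library totals ran from 25164548 to 43276230 counts (2-sided exact permutation p = 0.18 between genotypes). Of all counts, the mitochondrial ribosomal RNAs made up 31.2% ± 5.07 (wild type, SD, n = 6) and 38.4% ± 9.14 (mutant, SD, n = 5), with mutant animal 10 highest at 53.2% (2-sided exact permutation p = 0.126). Summed cortical excitatory neuron markers were highest in animals 1 and 12 (wild type) and 3 and 9 (mutant), at 942.2 to 1796 CPM against 650.3 to 842.0 CPM in the other 7 animals. Wild-type animal 20 stood apart in genes of the choroid plexus.

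The Fmr1 gene spans bases 68678541 to 68717963 of chromosome X in GRCm38/mm10. Its level ran from 51.6 to 63.4 CPM in wild type, with a median of 53.6 CPM, and was 12.2, 9.68, 11.6, 12.9 and 10.3 CPM in mutant animals 2, 3, 9, 10 and 11. No mutant library came near the wild-type range. The log2 fold change was -2.28 ± 0.11 (SE, 95% interval -2.50 to -2.06, edgeR adjusted p = 2.79e-10), and the mutant mean was 20.6% of the wild-type mean. The residual signal was 255 to 542 reads per mutant library. Each library thus carried the Fmr1 level its title implies.

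Besides Fmr1, 2 genes were called in input, and both were lower in the mutant. The 3 lower calls are 0.0183% of the 16429 genes tested, and the calls of higher genes are 0%. The quasi-likelihood test of edgeR called no gene higher, 519 genes were higher at an unadjusted p under 0.05 (3.16%), limma-voom also called none higher, and DESeq2 called 2 higher and 26 lower. At the same unadjusted threshold 604 genes were lower (3.68%). All 5 mutant libraries lay below all 6 wild-type libraries for 65 genes (0.396%), and above them for 39 (0.237%).

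Abi3bp encodes a secreted protein of the extracellular matrix. The gene spans 56477878 to 56690135 on chromosome 16. Its level ran from 20.7 to 30.4 CPM in wild type, with a median of 24.2 CPM, and was 9.37, 9.91, 6.88, 7.86 and 9.26 CPM in mutant animals 2, 3, 9, 10 and 11. The groups were separated by more than the spread within either one. The log2 fold change was -1.50 ± 0.14 (SE, edgeR adjusted p = 1.45e-05), which is 2.83-fold lower, and it stayed between -1.55 and -1.39 in all 24 alternative fits, each of which called it.

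Tns1 encodes tensin 1, which links integrin adhesions to actin. The gene spans 73910231 to 74124449 on chromosome 1. Its level ran from 20.4 to 26.7 CPM in wild type, with a median of 22.4 CPM, and was 15.4, 10.9, 8.72, 11.9 and 13.2 CPM in mutant animals 2, 3, 9, 10 and 11. The groups did not overlap. The log2 fold change was -0.92 ± 0.14 (SE, edgeR adjusted p = 0.0179). The call ended without animal 3 (adjusted p = 0.121), 4 (0.0679), 10 (0.0818) or 14 (0.0734), and without animals 1, 3, 9 and 12 together (0.0596). It also ended with the projection neuron marker score (0.0766) or the mitochondrial ribosomal RNA share (0.122) as a covariate. Over all 24 alternatives the log2 fold change lay between -1.03 and -0.74.

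**Figure D1:**
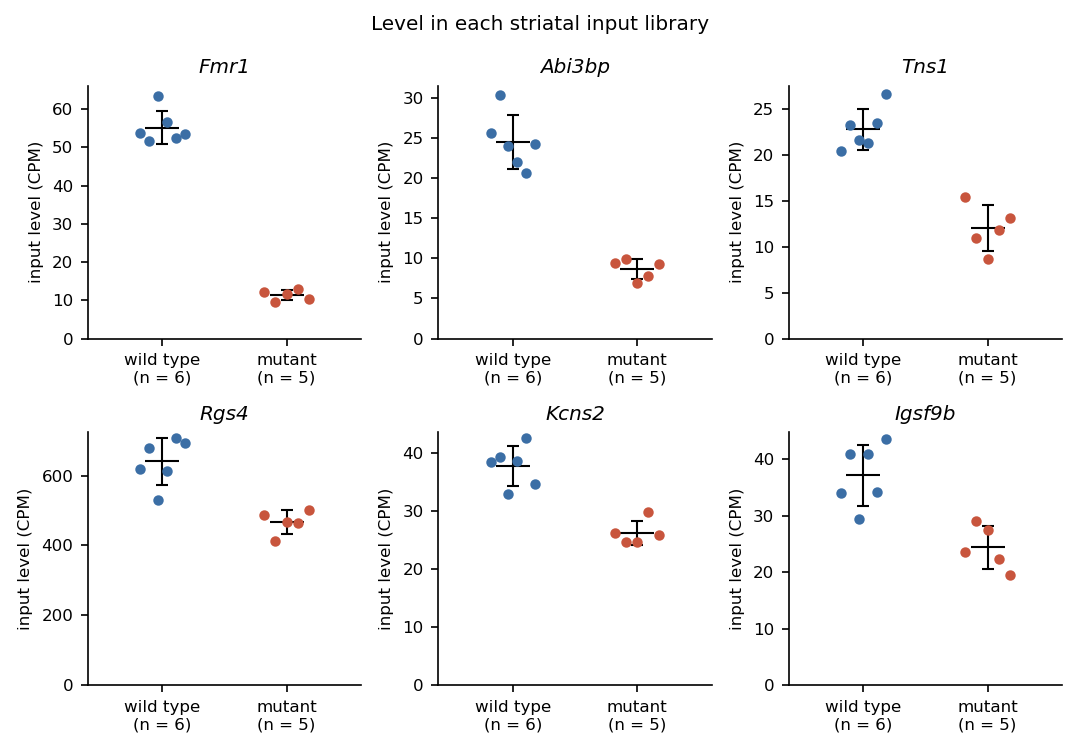
Level in CPM (vertical axis, from 0) of 6 genes in each input library, with blue points for 6 wild-type and red points for 5 mutant animals, a horizontal bar at the mean and error bars of 1 SD. Fmr1, Abi3bp and Tns1 were called, Rgs4, Kcns2 and Igsf9b were not, and in all 6 panels every mutant library lies below every wild-type library.

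The next genes by p stood lower in the mutant without passing the adjusted threshold, so their values are given and no change is claimed. Cdhr1, a cadherin-related protein best known from photoreceptors, ran from 2.03 to 4.94 CPM in wild type (median 3.60) and was 0.881, 0.977, 0.749, 1.72 and 0.906 CPM in mutant animals 2, 3, 9, 10 and 11 (-1.79 ± 0.31 SE, edgeR adjusted p = 0.0829). Kcns2, a modulatory subunit of voltage-gated potassium channels, ran from 33.0 to 42.7 CPM in wild type (median 38.6) and was 26.3, 24.7, 24.7, 29.9 and 25.9 CPM in the same mutant animals (-0.52 ± 0.10, adjusted p = 0.104). Neither gene's groups overlapped, and Cdhr1 was called without animal 10 or 20 and Kcns2 without animal 12.

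Rgs4, a regulator of G protein signalling that shortens responses through Gi and Gq, ran from 528.9 to 708.8 CPM in wild type (median 648.9) and was 486.8, 411.8, 468.2, 463.6 and 501.1 CPM in the mutant (-0.46 ± 0.08 SE, edgeR adjusted p = 0.104). Its groups did not overlap either. It was called without animal 12 (adjusted p = 0.018), without animals 1, 3, 9 and 12 (0.0484) and in 4 other alternatives, and over all of them its log2 fold change stayed between -0.51 and -0.36. Igsf9b, an adhesion protein of inhibitory synapses, ran from 29.4 to 43.5 CPM in wild type (median 37.5) and was 23.6, 29.0, 27.5, 22.3 and 19.5 CPM in the mutant (-0.61 ± 0.13, adjusted p = 0.231). The highest mutant library and the lowest wild-type library of Igsf9b differed by less than the SD within either group. Without animals 1, 3, 9 and 12 its log2 fold change was -0.87 and it was called (adjusted p = 0.0381).

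The other genes of this rank were Ifit1, an interferon-induced antiviral protein described further on, Zfp831, a zinc finger protein (32.9 CPM ± 4.56 (SD, n = 6) against 21.98 ± 1.87 (SD, n = 5), -0.58 ± 0.11 SE), and Exd1, an exonuclease-domain protein (1.67 CPM ± 0.729 against 0.422 ± 0.0735, -1.98 ± 0.42 SE). Their edgeR adjusted p-values were 0.122 for Zfp831 and 0.265 for Exd1. Neither gene's groups overlapped. In the authors' deposited table, 42 of 17692 genes with an adjusted p are under 0.05, of which 35 are lower and 7 higher in the mutant. The 3 genes called here are among the 42. So are Cdhr1, Kcns2, Rgs4, Ifit1, Zfp831, Igsf9b and Exd1, which were not called here. The same holds for Zfp521 and Cnr1 (lower) and Pkib, Tst and Car8 (higher), described below.

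Among genes that stood higher, the smallest p-values were those of Pkib, an inhibitor of protein kinase A, at 5.51 CPM ± 0.891 (SD, n = 6) against 11.04 ± 4.23 (SD, n = 5) in mutant libraries (1.00 ± 0.22 SE, edgeR adjusted p = 0.276). Its mutant libraries were spread, from 6.01 CPM in animal 2 to 15.9 CPM in animal 9, and overlapped wild type. Tst, a mitochondrial sulfurtransferase (0.56 ± 0.14), Eif1b, a translation initiation factor (0.45 ± 0.11), S100b, a calcium-binding protein of astrocytes (0.40 ± 0.10), and Car8, a protein related to carbonic anhydrases that binds the IP3 receptor (0.68 ± 0.18), followed with adjusted p-values of 0.366 to 0.379. Ift140, a part of the transport machinery of cilia (0.63 ± 0.17), and Use1, a SNARE of the endoplasmic reticulum (0.35 ± 0.10), were the only 2 of these 7 whose groups did not overlap. Another 3 of the 10 were predicted genes without a name. Of the exon bases of Eif1b, 12.7% overlap another annotated gene, and since the kit does not mark the strand the reads of the overlap cannot be assigned.

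**Figure D2:**
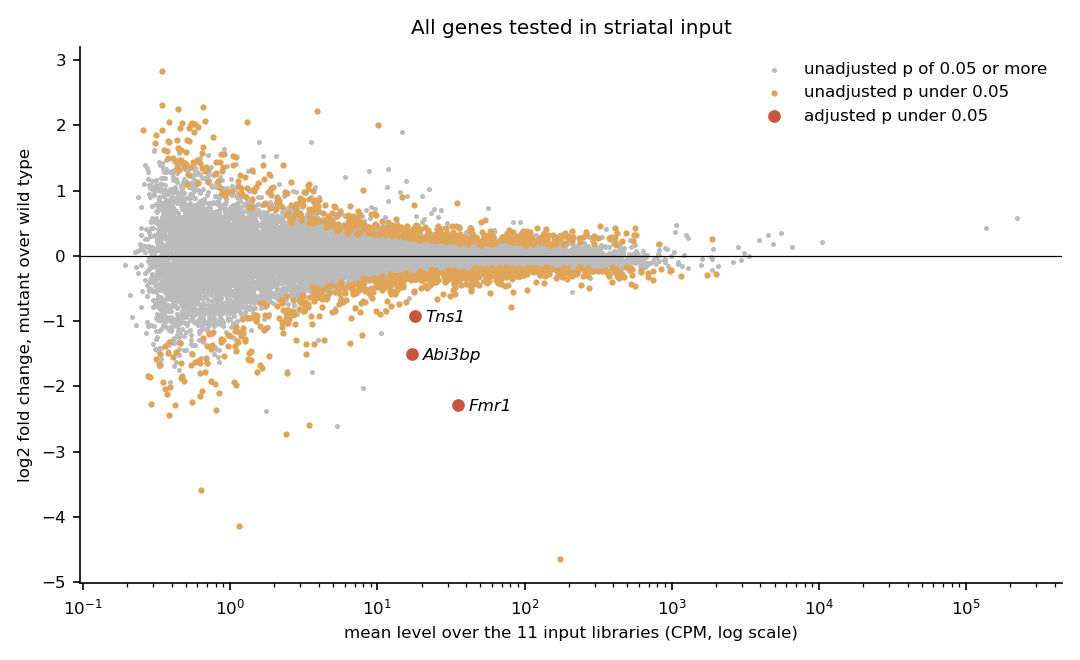
Mean level over the 11 input libraries (horizontal axis, CPM, log scale) against the log2 fold change of mutant over wild type (vertical axis) for the 16429 genes tested. Red points are the 3 genes called, orange points have an unadjusted p under 0.05, and the scatter narrows as the level rises.

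The precision of the comparison follows the depth. The 95% interval of the log2 fold change lay wholly within 2-fold of no change for 72.1% of genes and within 1.5-fold for 52.4%. A changed gene such as Fmr1 does not count here, however precise its estimate. Among the 4107 genes with the lowest mean level, up to 1.87 CPM, 9.57% had an interval within 2-fold of no change. Of the 4108 genes with the highest level, from 34.7 CPM, 99.2% did. The median SE was 0.545 in the former and 0.0959 in the latter. Smaller changes in weakly expressed genes were not detectable at this depth.

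Projection neurons make up most of the striatum, and their marker genes leaned to lower levels in mutant input without any of them being called. All 10 D1 markers had a negative log2 fold change (median -0.27), 3 of them at an unadjusted p under 0.05, against a median of 0.0025 and 49.5% negative over all genes tested. All 6 D2 markers were negative (median -0.13, 1 at that threshold), as were all 20 markers shared by both types (median -0.21, 9 at that threshold). Fewer cells of a type and less RNA per cell cannot be told apart in such bulk samples. The shares at the unadjusted threshold were 30%, 16.7% and 45% of the 3 lists, beside 3.68% of all genes. These lists, like all others here, are described by counts and medians only.

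Of the D1 markers, Zfp521, a zinc finger transcription factor, ran from 22.6 to 26.1 CPM in wild type (median 23.4) and was 19.1, 15.7, 18.7, 18.0 and 16.6 CPM in the mutant (-0.45 ± 0.10 SE, edgeR adjusted p = 0.276). Slc35d3, an orphan solute carrier with a role in D1 receptor trafficking, stood at 14.6 CPM ± 1.85 (SD, n = 6) and 9.72 ± 2.44 (SD, n = 5), a log2 fold change of -0.59 ± 0.17. These were the 2 D1 markers whose groups did not overlap, beside 0.396% of all genes with every mutant library below every wild-type library. Drd1, the receptor itself, stood at 197.6 CPM ± 32.4 and 157.9 ± 23.8 (-0.32 ± 0.12), with overlapping groups.

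Of the D2 markers, Penk, the enkephalin precursor, had the smallest p (-0.40 ± 0.15 SE), from 440.5 CPM ± 72.8 (SD, n = 6) to 334.4 ± 75.6 (SD, n = 5), and 14.3% of its exon bases overlap another gene. Plxdc1, a plexin domain protein, and Sp9, a transcription factor of D2 neurons, had intervals that included 0 (-1.11 to 0.11 and -0.47 to 0.08). Of the shared markers, Bcl11b, the transcription factor CTIP2, stood at -0.36 ± 0.10, and Ano3, an anoctamin, at -0.31 ± 0.09. Their edgeR adjusted p-values were 0.423 and 0.485.

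The summed shared markers ran from 9525 to 13100 CPM in wild type and from 8149 to 11620 CPM in the mutant, so the groups overlapped. Wild-type animal 12 and mutant animal 9, both among the 4 animals with high cortical markers, were the lowest of their groups. Without animals 1, 3, 9 and 12 the median of the shared markers was -0.18 with 15 of 20 negative, and without animal 9 it was -0.15 with 16 of 20 negative. The D2 median was -0.016 without the 4 animals and -0.05 without animal 9, with 3 of 6 negative in each. The D1 median was -0.24 without the 4 animals, with all 10 negative, and -0.18 without animal 9, with 9 of 10 negative. With the projection neuron marker score as a covariate the medians were -0.046 (D1, 7 of 10 negative), 0.023 (D2, 3 of 6) and -0.0017 (shared, 10 of 20). That score is the mean log2 CPM of the shared markers themselves, so the shared value follows from the fit. With the cortical marker score as a covariate the medians were -0.18 (shared, 20 of 20 negative), -0.22 (D1, 9 of 10) and -0.11 (D2, 5 of 6). Beyond these fits, the part that cortical tissue in these samples plays in the marker levels was not tested.

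**Figure D3:**
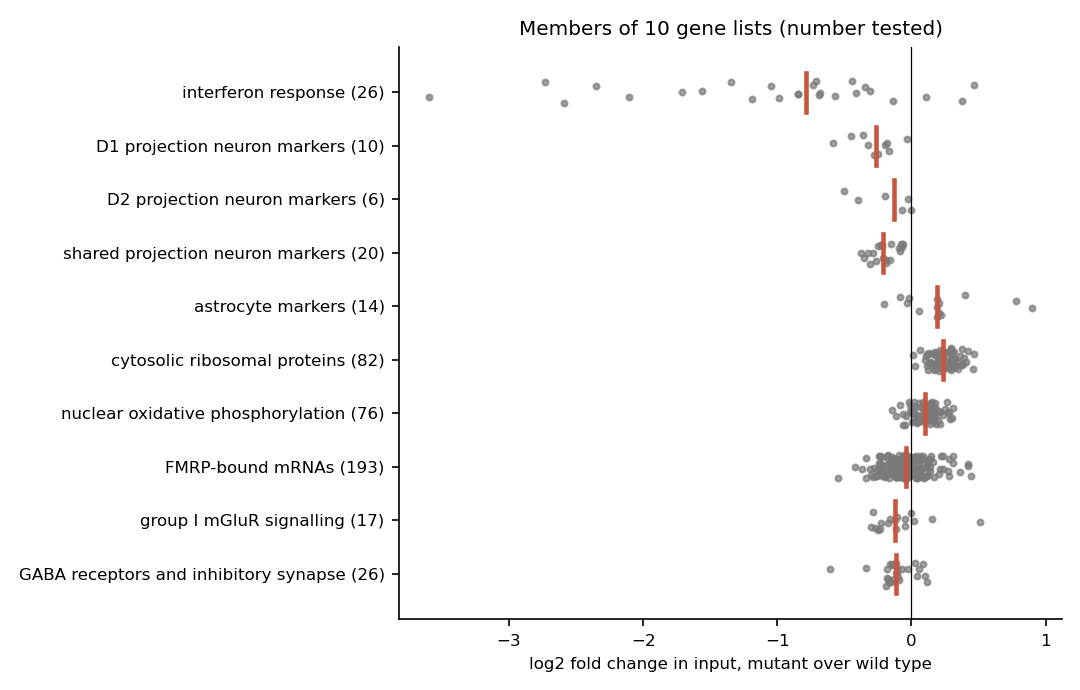
Log2 fold change of mutant over wild type in input (horizontal axis) for each tested member of 10 gene lists, as grey points with the number of members in brackets, and a red bar at each list's median. The interferon list reaches furthest to the left with a median of -0.79, and all 82 cytosolic ribosomal protein genes lie to the right of 0.

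Signalling genes of these neurons were described next, by function. Of 30 tested genes of dopamine and cAMP signalling, 22 were negative, with 7 lower and 1 higher at an unadjusted p under 0.05 (23.3% and 3.33%, beside 3.68% and 3.16% of all genes; median -0.08). Pde10a, the striatal phosphodiesterase of cAMP and cGMP, stood at 1904 CPM ± 287.0 (SD, n = 6) against 1557 ± 191.2 (SD, n = 5) (-0.29 ± 0.11 SE, edgeR adjusted p = 0.616). Akap5, an anchor of protein kinase A at the postsynapse, stood at -0.33 ± 0.11. The median of the list was -0.04 without animal 9 (16 of 30 negative) or animal 20, -0.14 without animal 2 and -0.12 without animal 10, and with the projection neuron marker score as a covariate it was 0.03, the opposite sign.

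Of 13 RGS genes, 10 were negative, with 3 lower (23.1%) and 1 higher (7.69%) at an unadjusted p under 0.05. Of all genes, 3.68% were lower and 3.16% higher at that threshold. The median of the list was -0.07, -0.15 without animal 2 and -0.03 without animal 11. It was -0.0097 without animals 1, 3, 9 and 12, with 7 of 13 negative. Beside Rgs4, the lower genes at that threshold were Rgs14, a scaffold of G protein and ERK signalling (20.9 CPM ± 5.86 (SD, n = 6) and 14.1 ± 3.39 (SD, n = 5), -0.56 ± 0.19 SE), and Rgs12 (9.93 CPM ± 1.199 and 7.78 ± 1.09, -0.35 ± 0.15). Rgs4 was the only member whose groups did not overlap, beside 0.396% of all genes with every mutant library below every wild-type library.

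Group I metabotropic glutamate receptors signal through Gq, and 14 of 17 genes of that pathway were negative, 5 at an unadjusted p under 0.05 (29.4%, beside 3.68% of all genes) and none higher (median -0.12, between -0.17 and -0.10 in all 24 alternatives). Itpr1, the IP3 receptor that releases calcium from stores, stood at 585.4 CPM ± 55.5 (SD, n = 6) and 480.2 ± 45.8 (SD, n = 5), a log2 fold change of -0.29 ± 0.09 SE. The protein kinases C Prkca (-0.30 ± 0.11) and Prkcb (-0.25 ± 0.09) followed. The groups of all 3 overlapped, and their edgeR adjusted p-values were 0.485 to 0.577.

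Endocannabinoids are made after mGluR activation and act on presynaptic terminals. Cnr1, the CB1 receptor, ran from 223.4 to 257.9 CPM in wild type (median 245.9) and was 196.9, 212.2, 196.8, 210.9 and 190.5 CPM in the mutant (-0.27 ± 0.07 SE, edgeR adjusted p = 0.379), and its groups did not overlap. Dagla, which makes the endocannabinoid 2-AG, stood at -0.24 ± 0.11, and Mgll, which breaks it down, at 0.21 ± 0.14. Of the 8 genes of the list, 3 were negative, 2 of them at an unadjusted p under 0.05 (25%, beside 3.68% of all genes). The median was 0.17, but 0.04 without animal 9, 0.08 without animal 20 and -0.08 with the projection neuron marker score as a covariate.

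Of 38 glutamate receptors and postsynaptic scaffolds, 26 were negative, 5 at an unadjusted p under 0.05 (13.2%, beside 3.68% of all genes) and none higher. The median was -0.10, -0.047 without animal 2 and -0.18 without animals 1, 3, 9 and 12. Grm4, a presynaptic metabotropic receptor, stood at -0.55 ± 0.16 SE, Cacng3, an AMPA receptor auxiliary subunit, at -0.38 ± 0.14, and Nlgn3, an adhesion protein of synapses, at -0.28 ± 0.11. Of the exon bases of Nlgn3, 41.2% overlap another annotated gene, so its value is uncertain. Of 26 genes of GABA receptors and the inhibitory synapse, 20 were negative, 4 at that threshold (15.4%) and none higher (median -0.12). Beside Igsf9b these included Nlgn2, the neuroligin of inhibitory synapses (-0.34 ± 0.11), and Magi2, a scaffold (-0.18 ± 0.08).

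Of 44 potassium channel genes, 27 were negative, with 6 lower and 1 higher at an unadjusted p under 0.05 (13.6% and 2.27%, beside 3.68% and 3.16% of all genes). Their median was -0.07. That median rested on single animals: it was 0.0007 without animal 2, -0.02 without animal 12, -0.16 without animal 9 and -0.21 without animals 1, 3, 9 and 12. Beside Kcns2, Kcnq5, a subunit of the M current, stood at -0.28 ± 0.09 SE, and Kcnn2, a calcium-activated channel, at 0.44 ± 0.15. Of 29 genes of synaptic vesicle release, 11 were negative, with 2 lower and 2 higher at that threshold (6.9% each): Sv2c, a vesicle glycoprotein of the basal ganglia, stood at -0.28 ± 0.09, Cplx2, a complexin that clamps fusion, at -0.21 ± 0.09, and Rims2, an active zone protein, at 0.26 ± 0.09. The list's median was 0.04 and ran from -0.07 to 0.10 with 1 animal left out, negative without animal 9. It was -0.07 without animals 1, 3, 9 and 12, and -0.19 with the projection neuron marker score as a covariate. Of 38 genes of extracellular matrix and adhesion, 27 were negative, 5 lower (13.2%) and 2 higher (5.26%) at that threshold, and Abi3bp and Tns1 were the 2 called. The median of that list was -0.10, -0.03 without animal 2 and -0.15 without animals 1, 3, 9 and 12. Abi3bp and Tns1 were put on that list with their earlier results in these data known.

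FMRP itself binds long mRNAs of synaptic and chromatin proteins. All 193 listed FMRP-bound mRNAs were tested, and none was called: 127 were negative, 21 lower and 4 higher at an unadjusted p under 0.05, which are 10.9% and 2.07% of the list beside 3.68% and 3.16% of all genes. The median SE was 0.099 in the list and 0.184 over all genes, so these shares were not taken at equal precision. Of the 4108 genes with the highest mean level, 245 were lower at that threshold. The median log2 fold change of the list was -0.04, between -0.077 (without animal 9) and -0.026 (without animal 4) with 1 animal left out, -0.13 without animals 1, 3, 9 and 12, and -0.016 with the mitochondrial ribosomal RNA share as a covariate. Rasgrp1, an activator of Ras in striatal neurons, ran from 1139 to 1368 CPM in wild type (median 1281) and was 1039, 985.6, 1134, 982.4 and 1001 CPM in the mutant (-0.30 ± 0.08 SE, edgeR adjusted p = 0.366), and its groups did not overlap. Dock4, an activator of Rac, stood at -0.42 ± 0.11.

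Among 21 genes of the FMRP family and its partners, Fmr1 alone was called and alone had an unadjusted p under 0.05, and 13 were negative. Cyfip2, which joins FMRP to the WAVE complex of actin, stood at 697.2 CPM ± 61.7 (SD, n = 6) and 616.3 ± 64.9 (SD, n = 5), a log2 fold change of -0.18 ± 0.08 SE. Dicer1, the nuclease that makes microRNAs, stood at -0.21 ± 0.10. Both had overlapping groups.

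The genes of the interferon response, which cells switch on when they sense viral nucleic acid, had the lowest median of the lists described here. Of 28 listed genes, 26 were tested, 23 were negative, and 16 were lower and none higher at an unadjusted p under 0.05 (61.5% of the list beside 3.68% of all genes). None was called. The median log2 fold change was -0.79, and -0.85 over all 28 genes when no filter on low counts was used. It stayed between -0.945 and -0.66 in all 24 alternatives, the weakest being the fit without wild-type animal 4.

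Most of these genes were weakly expressed. Ifit1 ran from 1.63 to 8.18 CPM in wild type (median 3.30, 49 to 238 reads) and was 0.294, 0.296, 0.647, 0.304 and 1.36 CPM in mutant animals 2, 3, 9, 10 and 11 (6 to 54 reads), a log2 fold change of -2.73 ± 0.52 SE (edgeR adjusted p = 0.122). Ifi44, a gene induced by type I interferon, ran from 0.166 to 1.58 CPM in wild type (median 1.22) and had at most 8 reads in any mutant library (-3.59 ± 0.82, adjusted p = 0.276).

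All mutant libraries lay below all wild-type libraries for 4 of the 26 genes, beside 0.396% of all genes tested. They included Ifit1, the transcription factor Irf7 (-2.10 ± 0.63 SE) and the 2-5A synthetase-like Oasl2 (-2.59 ± 0.63), of which the latter pair were chosen after their values were seen. The level summed over all 28 listed genes was 146.6, 238.8, 213.9, 141.1, 152.2 and 152.6 CPM in animals 1, 4, 12, 13, 14 and 20 (wild type), and 100.6, 114.4, 116.9, 111.9 and 140.7 CPM in mutant animals 2, 3, 9, 10 and 11. Wild-type animals 4 and 12 stood highest, and the lowest wild-type and highest mutant sums nearly met. Microglia markers, which could carry such genes, were negative in 9 of 16 with a median of -0.04, whose sign turned without animal 2, 4 or 9, and sums of 126.4 to 209.8 CPM in wild type and 143.4 to 216.9 CPM in the mutant. Endothelial markers were negative in 12 of 16 with a median of -0.155 and sums of 80.8 to 117.8 CPM and 69.1 to 103.0 CPM. That endothelial median was -0.018 with 8 of 16 negative without animal 12, -0.059 without animal 13, -0.25 without animal 10 and -0.428 with the mitochondrial ribosomal RNA share as a covariate. No marker of either list was at 0 in any input library, and their part in the interferon values was not tested.

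Many promoters of this response carry the interferon-stimulated response element, and the 250 bases upstream of the RefSeq gene starts (GRCm38.p6) were searched on both strands for its core, written as GAAANNGAAA, with overlapping matches allowed. Of the 26 tested members 21 had a promoter in that table, and 8 of the 21 held a match, against 3.09% of 11521 tested genes with a promoter and 2.98% of all 32851 promoters. Of the 12 that were lower at an unadjusted p under 0.05, 5 held a match, and of the other 9, 3 did. The upstream bases of the 3 matching members with the smallest p in input are shown 5′ to 3′ on the strand of the gene, with the matches in capitals. A match is a description of letters and not a measured binding site.
Ifit1, chr19:34640639-34640888, plus strand, GRCm38.p6: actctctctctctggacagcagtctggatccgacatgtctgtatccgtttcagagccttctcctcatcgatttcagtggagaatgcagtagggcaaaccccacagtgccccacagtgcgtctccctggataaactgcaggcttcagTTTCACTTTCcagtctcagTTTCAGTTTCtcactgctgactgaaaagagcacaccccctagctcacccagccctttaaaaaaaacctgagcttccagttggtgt
Ifit3, chr19:34583279-34583528, plus strand, GRCm38.p6: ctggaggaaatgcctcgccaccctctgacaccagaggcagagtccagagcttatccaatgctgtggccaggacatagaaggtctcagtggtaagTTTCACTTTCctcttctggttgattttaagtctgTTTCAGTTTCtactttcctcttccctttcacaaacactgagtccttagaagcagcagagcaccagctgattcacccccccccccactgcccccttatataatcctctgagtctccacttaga
Isg15, chr4:156200819-156201068, minus strand, GRCm38.p6: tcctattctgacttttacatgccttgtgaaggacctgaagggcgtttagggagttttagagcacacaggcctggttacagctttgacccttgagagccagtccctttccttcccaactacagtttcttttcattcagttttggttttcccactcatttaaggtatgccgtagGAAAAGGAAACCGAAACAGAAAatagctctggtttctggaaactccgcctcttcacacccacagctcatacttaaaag
Ifit1 and Ifit3 lie on the same chromosome and each held 2 separate matches. Isg15 held 3 matches that overlap in a run of 22 bases. Ifit3 was named for its match, and the log2 fold changes of Ifit3 and Isg15 in input were -1.34 ± 0.39 SE and -1.71 ± 0.52 SE.

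**Figure D4:**
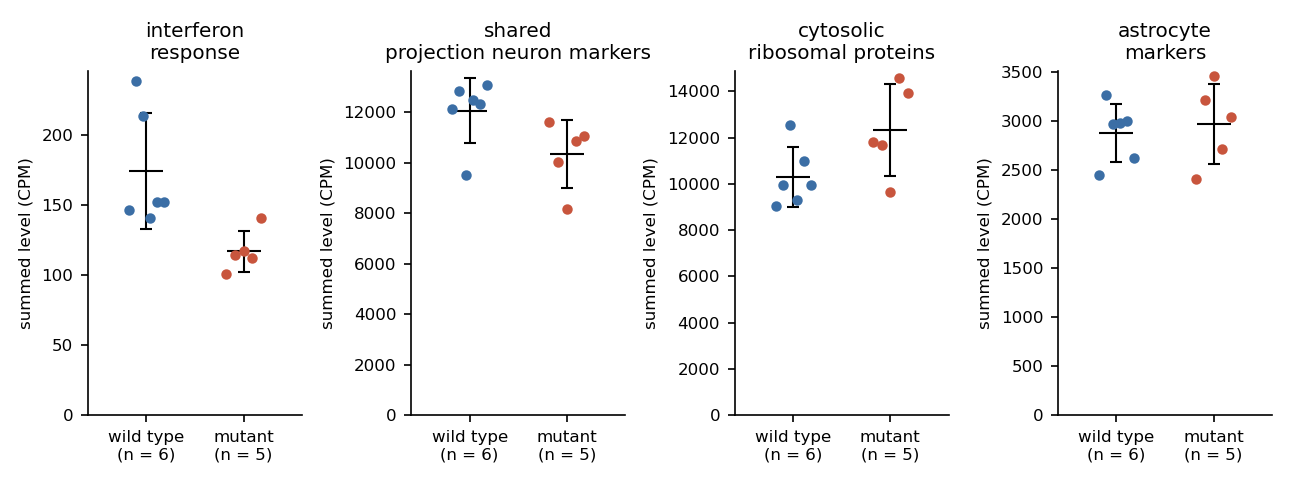
Summed level in CPM (vertical axes, from 0) of all members, tested or not, of 4 gene lists in each input library, with blue points for 6 wild-type and red points for 5 mutant animals, a horizontal bar at the mean and error bars of 1 SD. The interferon sums are 141.1 to 238.8 CPM in wild type and 100.6 to 140.7 CPM in the mutant, and the other 3 lists overlap between genotypes.

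Ribosomal protein mRNAs, which encode the parts of the ribosome, stood on the other side. All 82 cytosolic ribosomal protein genes had a positive log2 fold change in input (median 0.24), 45 were higher at an unadjusted p under 0.05 (54.9% of the list beside 3.16% of all genes), and none was called or had groups that did not overlap. Rps4x, of the small subunit, stood at 264.0 CPM ± 17.1 (SD, n = 6) and 322.3 ± 43.9 (SD, n = 5), a log2 fold change of 0.29 ± 0.09 SE (edgeR adjusted p = 0.485). Rps28 stood at 0.38 ± 0.12 and Rpl15, of the large subunit, at 0.23 ± 0.07. Many of these genes have near-identical processed pseudogenes, so part of their reads may be split between copies.

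The summed ribosomal protein level was 9035, 9949, 12550, 9314, 10990 and 9956 CPM in animals 1, 4, 12, 13, 14 and 20 (wild type), and 11790, 11690, 9653, 14590 and 13930 CPM in mutant animals 2, 3, 9, 10 and 11. Wild-type animal 12 lay among the mutant libraries and mutant animal 9 among the wild type. Without animals 1, 3, 9 and 12 the median was 0.42, all 82 genes were positive, and Rps28 (log2 fold change 0.58, edgeR adjusted p = 0.0484) and Rps20, named after its value was seen, were called higher. The mitochondrial ribosomal RNA share was highest in mutant animals 10 (53.2%) and 11 (41.0%), whose ribosomal protein sums were also the highest. Wild-type animals 12 (37.1%) and 14 (36.2%) had the highest wild-type shares, and their sums were the highest of that genotype. Among the other animals the orders differed. Mutant animal 2 had a share of 30.6% with a sum of 11790 CPM, and mutant animal 9 a share of 34.5% with 9653 CPM. Wild-type animal 13 had 33.1% with 9314 CPM, and wild-type animal 20 had 25.1% with 9956 CPM. With that share as a covariate the median was 0.12 and 77 of 82 were positive.

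Genes of energy metabolism and protein turnover were described next. Of 76 nuclear-encoded subunits of oxidative phosphorylation, 66 were positive, 14 at an unadjusted p under 0.05 (18.4%, beside 3.16% of all genes) and none lower. The median was 0.10, 0.21 without animals 1, 3, 9 and 12, 0.066 without animal 13 and 0.062 with the mitochondrial ribosomal RNA share as a covariate. Ndufa4 (0.27 ± 0.08 SE), Uqcrh of complex III (0.31 ± 0.09) and Ndufb9 of complex I (0.31 ± 0.09) had the smallest p, and 19.5% of the exon bases of Ndufb9 overlap another gene. Of 31 proteasome subunits, 18 were positive with a median of 0.016 (0.0015 to 0.046 with 1 animal left out, lowest without animal 2 and highest without animal 20), and 4 were higher at that threshold (12.9%), among them Psmd13 of the regulatory particle (0.35 ± 0.10), Psmb3 (0.24 ± 0.11) and Psma7 (0.21 ± 0.09) of the core. Of 11 genes of iron storage and handling, 7 were positive with a median of 0.13, which was -0.0025 without animal 12 and 0.0075 without animal 3. The ferritin subunits Fth1 (0.25 ± 0.11) and Ftl1 (0.25 ± 0.09, with 34.6% of exon bases overlapping other genes) were the 2 at that threshold, and Tfrc, the transferrin receptor, stood at -0.35 ± 0.17. The edgeR adjusted p-values of these 9 genes were 0.457 to 0.733.

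Protein-coding genes were also split by total exon length into 4 groups of 3428. In the group with the shortest total exon length, up to 2922 bases, the median log2 fold change was 0.045. Here 67 genes were lower and 168 higher at an unadjusted p under 0.05. In the next groups the medians were 0.0047 and -0.020. In the group with the longest total exon length, from 7046 bases, the median was -0.027, with 201 genes lower and 84 higher. The median SE was 0.202 in the shortest group and 0.125 in the longest, so these counts were not taken at equal precision. Over all genes tested, 3.68% were lower and 3.16% higher at that threshold. The difference between the medians of the shortest and the longest group was 0.073, and 0.158 without animals 1, 3, 9 and 12. Taken per library, the mean log2 CPM of the short group minus that of the long group ran from -2.03 to -1.88 in wild type and from -2.02 to -1.81 in the mutant, so single libraries overlapped. The part that length plays in the values of the lists above was not tested.

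Of 14 astrocyte markers, 10 were positive, 3 at an unadjusted p under 0.05 (21.4%, beside 3.16% of all genes) and none lower (median 0.19, 0.12 without animal 9, and 0.02 with the projection neuron marker score as a covariate). S100b stood at 68.8 CPM ± 10.3 (SD, n = 6) and 90.5 ± 7.73 (SD, n = 5), Gfap, the intermediate filament of reactive astrocytes, at 13.4 CPM ± 4.55 and 22.9 ± 5.63 (0.78 ± 0.22 SE), and Aldoc, a glycolytic enzyme, at 426.6 CPM ± 34.3 and 496.9 ± 31.5 (0.22 ± 0.08). All 3 had overlapping groups, and the summed markers ran from 2444 to 3262 CPM in wild type and from 2409 to 3452 CPM in the mutant. Of 16 oligodendrocyte markers, 12 were positive, 1 at that threshold (median 0.09, 0.02 without animal 2).

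Choroid plexus genes were highest in wild-type animal 20. Ttr, the transthyretin of the choroid plexus, was 1782 CPM in that animal, 5.69 to 33.0 CPM in the other wild-type animals and 3.77 to 25.2 CPM in the mutant (-4.64 ± 1.91 SE, edgeR adjusted p = 0.685). Clic6, a chloride channel protein (-0.88 ± 0.39), and Kl, which encodes klotho (-2.61 ± 1.32), had the same animal on top, at 31.3 and 44.2 CPM. Without animal 20 the log2 fold change was -0.35 for Ttr, -0.42 for Clic6 and 0.02 for Kl, and the median of the 11 markers went from -0.47 to 0.32.

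The most abundant RNAs in input were largely mitochondrial. The genes mt-Rnr2 and mt-Rnr1, the ribosomal RNAs of mitochondria, took 21.4% and 13.1% of counts on average and stood at 0.58 ± 0.26 and 0.42 ± 0.29 SE. Without mutant animal 10 these were 0.27 for mt-Rnr2 and 0.10 for mt-Rnr1. The mitochondrial mRNAs mt-Nd4, mt-Co1, mt-Cytb, mt-Nd1 and mt-Nd5, which encode respiratory chain subunits, had intervals that included 0, with estimates of 0.24, 0.22, 0.18, 0.14 and 0.04. With the mitochondrial ribosomal RNA share as a covariate these 5 estimates and that of mt-Rnr1 turned negative. Malat1, a nuclear noncoding RNA, stood at 0.32 ± 0.15, and Snap25, a SNARE of neurons, at -0.0045 ± 0.21, a sign that turned with the scaling. Their edgeR adjusted p-values were 0.736 to 0.999.

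On chromosome X, no other gene near Fmr1 was called. Of 30 tested genes within 5 Mb, 4 had an unadjusted p under 0.05, beside 3.68% of all genes lower and 3.16% higher. The nearest tested protein-coding neighbours included Aff2, a nuclear protein whose loss causes another fragile site disorder (0.38 ± 0.16 SE, edgeR adjusted p = 0.685), Ids, a lysosomal enzyme (0.0004 ± 0.11), and the synaptic adhesion proteins Slitrk2 (-0.02 ± 0.14) and Slitrk4 (-0.18 ± 0.13). The signs of Ids and Slitrk2 turned in several alternatives.

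The same animals were also measured in the pulldown of D1 ribosomes, so values from both assays are set side by side. Abi3bp stood at -1.50 ± 0.14 (SE) in input and -1.50 ± 0.16 in the pulldown, Tns1 at -0.92 ± 0.14 and -1.31 ± 0.14, and Igsf9b at -0.61 ± 0.13 and -0.94 ± 0.12. Of the other genes that were lower in the mutant pulldown, Cdh4, a cadherin, stood at -0.70 ± 0.20 in input and -1.55 ± 0.25 in the pulldown. Pkp4, a plakophilin of cell junctions, stood at -0.22 ± 0.10 and -0.49 ± 0.08, Isg15, a ubiquitin-like protein induced by interferon, at -1.71 ± 0.52 and -3.50 ± 0.60, and Adamts18, a secreted metalloprotease, at -0.81 ± 0.57 and -3.04 ± 0.53. In input the edgeR adjusted p-values of Cdh4, Pkp4, Isg15 and Adamts18 were 0.459 to 0.847, and the input interval of Adamts18 ran from -2.01 to 0.39.

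The difference between the assays was tested as the genotype by assay interaction, fitted over all 22 libraries. The quasi-likelihood test of edgeR called 0 of 17311 genes (0%), and 710 genes (4.10%) had an unadjusted p under 0.05. DESeq2 called 5 genes, among them Fmr1, and limma-voom called 0. With the animal number as a replicate block, which pairs the input and pulldown of an animal, 0 genes were called. The interaction of Fmr1 was -0.83 ± 0.15 (SE, edgeR adjusted p = 0.128), of Tns1 -0.40 and of Abi3bp -0.02. Fmr1 was called without animal 1 or 3, with 2 genes called in each of those fits. A missing call does not show that the assays agree: the intervals of the interaction ran from -0.44 to 0.41 for Abi3bp and from -0.82 to 0.01 for Tns1. These intervals, and the interaction values above, are from the fit without the replicate block, which leaves the pairing out. With the block the interaction was -0.83 ± 0.14 SE for Fmr1, -0.40 ± 0.17 for Tns1 and -0.03 ± 0.20 for Abi3bp.

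Medians of the same members in input and pulldown are given side by side, and their difference was not tested. The 14 interferon genes tested in both assays had medians of -0.72 and -0.29, the cytosolic ribosomal proteins 0.24 and 0.09, the shared projection neuron markers -0.21 and -0.08, and the D1 markers -0.27 and -0.08. Kcns2 and Rgs4 stood at -0.23 ± 0.09 and -0.34 ± 0.09 SE in the pulldown.

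**Figure D5:**
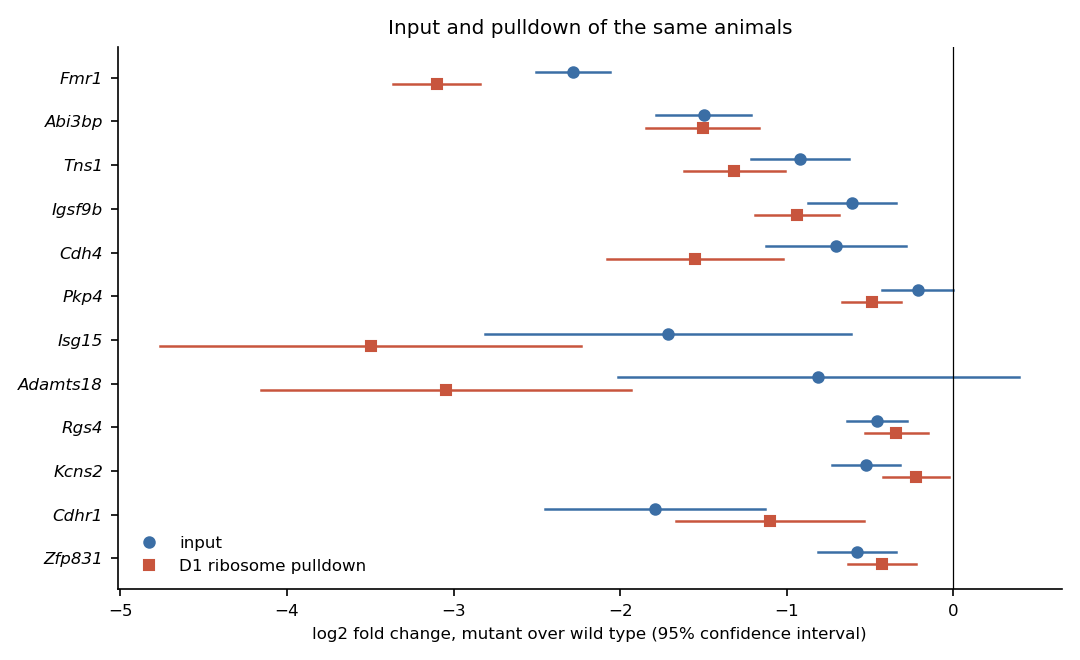
Log2 fold change of mutant over wild type (horizontal axis) for 12 genes in input (blue circles) and in the D1 ribosome pulldown (red squares), with 95% confidence intervals as lines. Abi3bp has the same estimate of -1.50 in both assays, and the input interval of Adamts18 crosses 0. Abi3bp, Tns1, Igsf9b, Cdh4, Pkp4, Isg15 and Adamts18 were chosen as lower in the mutant pulldown. Rgs4, Kcns2, Cdhr1 and Zfp831 were chosen by their p in input.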

How the data were processed

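Striatal lysate RNA (input) of 6 wild-type and 5 Fmr1 mutant mice was sequenced as paired ends from libraries that are not strand-specific, per the labels' protocols. The submitters' processing notes name STAR, featureCounts, DESeq2 and mm10 with versions not given in the sources used here. The values analysed were the raw counts per gene deposited by the authors. The authors' deposited table of the same comparison holds log2 fold changes, with wild type over mutant as the direction, and adjusted p-values. It was used only for the counts and gene names credited to it.

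Genes were filtered with filterByExpr, scaled by TMM and tested with the quasi-likelihood test of edgeR 4.0.16 (R 4.3.3) on the 11 input libraries alone, with Benjamini-Hochberg adjustment over all genes tested and a threshold of 0.05. DESeq2 1.42.0 and limma-voom (limma 3.58.1) were alternatives. An SE is the log2 fold change divided by the root of the F statistic, and a prior count of 2 was added for log2 CPM. The script was tested on simulated data with known changes. Exact permutation tests covered 462 divisions, for which the smallest p is 0.00216. Gene positions came from GENCODE release M21 (GRCm38/mm10), in which all 55341 symbols matched.

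The labels give no litter or culture, and the animal numbers of the genotypes do not overlap, so genotypes could not be paired. Input and pulldown of an animal come from 1 lysate, per the labels' protocols. In 11 of 11 animals the input deviated most like its own pulldown (r 0.247 to 0.523 over 8300 genes at 10 CPM or more), which is the check of the pairing used in the replicate block.

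The members and lists were chosen with earlier results of these data known. Named genes were Fmr1, the genes called, the next by p up to 10 in each direction, up to 3 members with the smallest p of each list described, 7 genes lower in the pulldown, the 10 most abundant genes, the neighbours of Fmr1 and genes called for the interaction. Predicted genes were counted only, and a few genes that the rule names are not reported here. The alternatives were other scalings, filters and tools, leaving out animals, removing the mitochondrial ribosomal RNAs, protein-coding genes only, and marker scores as covariates. Covariates for the projection neuron markers and the mitochondrial ribosomal RNA share were added after the data were seen.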

Additional observations from a re-analysis of the deposited data

Results flagged for a closer look

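Groups of values were those of 84 named genes and 2 measures of the library, each in both genotypes. In 18 of these 172 groups, 1 library lay far from the others of its genotype by Dixon's test. For independent groups of normal values the expected share is about 5%. The groups here share the same 11 libraries and include genes that vary together, so no excess over that share can be read from them. Of the 18 values apart, 11 came from 3 wild-type animals and 7 from 4 mutant animals.

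Wild-type animal 12, with high cortical markers, was apart in 5 genes. It was low for Bcl11b (162.7 CPM against 217.6 to 237.9 in the others) and Pde10a (1362 against 1880 to 2155), both genes of projection neurons. It was high for Uqcrh (206.7 against 152.5 to 172.7), Aff2 (20.95 against 11.76 to 13.99) and Slitrk4 (77.82 against 50.12 to 58.32). Mutant animal 9, the highest in cortical markers, was high for the neuronal SNARE Snap25 (5890 against 2598 to 2975) and low for the proteasome subunit Psmb3 (19.38 against 25.15 to 27.16). Mutant animal 3 was high for Nlgn3 (65.17 against 44.07 to 49.92).

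Wild-type animal 20 was high for the choroid plexus genes Ttr (1782 CPM against 5.691 to 33.03), Kl (44.24 against 0.8652 to 2.51) and Clic6 (31.29 against 6.901 to 14.08), and for Cacng3 (91.17 against 54.25 to 64.33). Mutant animal 2 was high for Clic6 (10.79 against 5.86 to 6.947) and low for the astrocyte gene Aldoc (442.1 against 502.1 to 518.7).

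Wild-type animal 4 was high for Cyfip2 (814.3 CPM against 646.3 to 700.7) and low for Psmd13 (22.34 against 26.19 to 28.31). Mutant animal 10, with the highest mitochondrial ribosomal RNA share, was high for Cdhr1 (1.724 against 0.7492 to 0.9766) and Slitrk2 (38.74 against 30.48 to 31.65).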

How the results depend on the processing

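Fmr1 and Abi3bp were called in all 24 alternatives of the input comparison. Against 3 genes called, 5 were called without a filter on low counts, 28 with DESeq2, 7 without animals 1, 3, 9 and 12 (2 of them among the 3), 5 with sample weights in limma-voom, and 2 to 7 with 1 animal left out. At an unadjusted p under 0.05, the 604 lower and 519 higher genes became 1762 and 1651 without the filter and 1021 and 786 without animals 1, 3, 9 and 12, and 322 were higher with the mitochondrial ribosomal RNA share as a covariate. For the interaction, DESeq2 called 5 genes, leaving out 1 animal gave 0 to 2, and the animal number as a replicate block gave 0, as without it. The difference between the medians of the groups with the shortest and longest total exon length was 0.0729, and 0.158 without animals 1, 3, 9 and 12. Where these values moved, the cause was not tested beyond the number of genes or animals entered.

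With the mitochondrial ribosomal RNA share as a covariate the sign turned for mt-Rnr1 (-0.13), mt-Nd4 (-0.12), mt-Co1 (-0.15), mt-Cytb (-0.18), mt-Nd1 (-0.23), mt-Nd5 (-0.24) and Snap25 (0.080). Snap25 also turned with RLE scaling (0.00242), DESeq2 (0.00243), the oligodendrocyte covariate (0.0492) and protein-coding genes only (0.00354). Slitrk2 turned with sample weights (0.0295), the cortical covariate (0.0349) and the projection neuron covariate (0.15). Ids turned without animals 1, 3, 9 and 12 (-0.18), with the mitochondrial ribosomal RNAs removed (-0.0037), sample weights (-0.0633), the cortical covariate (-0.0368) and the projection neuron covariate (-0.0920). With 1 animal left out, the estimates ran from -2.87 to 0.0188 for Kl, -0.0249 to 0.23 for mt-Nd1, -0.0705 to 0.13 for mt-Nd5, -0.0875 to 0.097 for Slitrk2, -0.30 to 0.0744 for Snap25 and -0.0580 to 0.0695 for Ids. None of these 10 genes was called.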
